A study of Homo sapiens with 12 samples.

Results

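Genes that clinicians and toxicologists read as markers of an injured kidney tubule were examined in HK-2 cells exposed to a high dose of a compound labelled Nnm. The set held 10 genes, HAVCR1, CLU, SPP1, LCN2, IL18, TIMP1, VIM, CD44, ANXA2 and FABP1, out of 19775 genes that the array's annotation names alone on at least 1 probe set. A probe set is a group of short oligonucleotides on the array that together read 1 transcript. All probe sets naming only 1 of these genes were taken, which gave 31, and for each gene the brightest of them, by its mean over the 12 arrays, leads the description. Only probe sets with log2 expression above 4 on at least 3 arrays were tested. By that filter 20 probe sets of 8 genes were tested, and LCN2 and FABP1 stayed below log2 4 on all 12 arrays. A further probe set that names ANXA2 together with SNU13 was left out.

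HK-2 cells derive from the epithelium of the human proximal tubule and were immortalized. The 4 groups, each with 3 replicates that the labels call biological, were high-dose Nnm for 24 h, high-dose Nnm for 48 h, vehicle control for 24 h and vehicle control for 48 h. All cells were treated when nearly confluent in the same hormone-supplemented medium, and the dose, the vehicle and what the name Nnm stands for are not given further in the sources used here. Since nothing says how the replicates of this single line were kept apart, p-values measure only the spread between these arrays, and in a bulk sample fewer cells of a type and less RNA per cell cannot be told apart.

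When the proximal tubule is damaged, its cells lose part of their differentiated programme and switch on genes for debris uptake, matrix turnover, adhesion and inflammation. HAVCR1 encodes KIM-1, a surface receptor by which injured tubule cells engulf dying neighbours, and its shed ectodomain is measured in urine. Clusterin (CLU), osteopontin (SPP1), lipocalin 2 or NGAL (LCN2), interleukin 18 (IL18), TIMP1 and liver fatty acid binding protein (FABP1) are secreted or released proteins that are followed in urine or plasma for the same purpose. Vimentin (VIM), the hyaluronan receptor CD44 and annexin A2 (ANXA2) mark dedifferentiated and regenerating tubule cells.

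Before the markers are described, 2 Nnm arrays need to be named. On the main axis of a principal component analysis, which carried 57.4% of the variance, Nnm replicates 1 and 3 scored 68.6 to 87.8 at the 2 times and the 6 control arrays -49.6 to -44.2. Nnm replicate 2 lay between them, at -16.1 at 24 h and at -19.8 at 48 h, and correlated more closely with the controls of its time (0.974 and 0.977) than with the other Nnm arrays (0.938 and 0.947). Values without the Nnm arrays numbered 2 therefore stand beside the marker changes whose call or size they alter. That alternative was chosen after the data were seen, and since those arrays were picked for lying near the controls, its p-values do not test the genes. The same holds for a fit that leaves out only 1 of these arrays. Array medians lay between 2.91 and 2.98, and between 22023 and 22228 probe sets exceeded log2 4 on each array.

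The cells carried the general epithelial programme and little of the mature proximal tubule programme. All 8 epithelial markers on the array averaged above log2 4, against 3 of 15 proximal tubule markers, namely PAX8, CDH16 and CDH6. The defining uptake receptors and transporters LRP2, CUBN, SLC34A1 and AQP1 averaged 2.57, 2.10, 2.66 and 2.43. None of the 5 leukocyte markers on the array exceeded the filter (array means of the list 2.40 to 2.53 in Nnm cells and 2.37 to 2.44 in control cells), nor did 5 of 6 endothelial markers. The endothelial marker above it was PECAM1, which averaged 4.35. The endothelial list averaged 2.82 to 3.16 with Nnm and 2.84 to 2.91 in controls at 24 h, and 2.96 to 2.99 with Nnm and 2.83 to 2.93 in controls at 48 h, without overlap at 48 h. Fibroblast markers exceeded it for 4 of 8 genes (COL1A1, DCN, LUM and ACTA2), with list means of 5.83 to 6.28 in Nnm arrays and 5.99 to 6.22 in control arrays. The epithelial list averaged 11.09 to 11.32 on the 24 h Nnm arrays, against 11.47 to 11.70 on the 24 h control arrays, and the 2 ranges did not overlap. Distal nephron markers (2 of 7 above the filter) averaged 4.38 to 4.62 on Nnm arrays and 4.13 to 4.43 on control arrays, and podocyte markers (2 of 4) 4.55 to 4.77 and 4.34 to 4.54, with no overlap between Nnm and control at either time for both lists. The part of these lists in the marker results was not tested.

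Promoter sequence is shown for 4 of the markers whose leading probe sets carried a called rise at 48 h (TIMP1), the highest difference at 48 h (CD44) or the 2 lowest (HAVCR1 and ANXA2). RefSeq entries on GRCh38.p14 were matched for 8 of the 10 markers. Each run is the 250 bases upstream of the transcription start, read 5′ to 3′ along the gene's strand, and capitals mark the GC box, GGGCGG on either strand, the letters bound by the Sp1 family. The positions are chrX:47582186-47582435 (plus strand) for TIMP1, chr11:35138921-35139170 (plus strand) for CD44, chr15:60397987-60398236 (minus strand) for ANXA2 and chr5:157059117-157059366 (minus strand) for HAVCR1.
TIMP1: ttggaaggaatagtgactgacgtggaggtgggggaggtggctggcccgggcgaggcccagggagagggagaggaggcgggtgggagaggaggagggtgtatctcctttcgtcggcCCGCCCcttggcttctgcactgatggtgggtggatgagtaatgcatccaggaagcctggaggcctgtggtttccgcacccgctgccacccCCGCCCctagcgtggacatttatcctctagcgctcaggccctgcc
CD44: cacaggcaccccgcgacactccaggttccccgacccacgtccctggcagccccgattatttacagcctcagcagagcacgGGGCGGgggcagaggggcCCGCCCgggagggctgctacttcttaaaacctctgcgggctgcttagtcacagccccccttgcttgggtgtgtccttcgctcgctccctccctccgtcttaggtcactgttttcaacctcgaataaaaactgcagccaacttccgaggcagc
ANXA2: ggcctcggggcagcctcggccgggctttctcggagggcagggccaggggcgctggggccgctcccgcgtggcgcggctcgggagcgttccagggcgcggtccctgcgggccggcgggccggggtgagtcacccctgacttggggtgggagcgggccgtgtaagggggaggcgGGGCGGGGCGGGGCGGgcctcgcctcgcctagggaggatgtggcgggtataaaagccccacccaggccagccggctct
HAVCR1: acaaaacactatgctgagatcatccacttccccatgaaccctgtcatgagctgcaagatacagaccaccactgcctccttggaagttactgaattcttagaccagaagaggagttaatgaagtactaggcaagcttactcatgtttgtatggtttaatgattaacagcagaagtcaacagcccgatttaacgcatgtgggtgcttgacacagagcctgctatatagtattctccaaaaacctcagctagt
TIMP1 and CD44 each held 2 GC boxes, ANXA2 held 3 that overlap one another, and HAVCR1 held 0. Among all 35116 RefSeq promoters of the same length, 42.6% held at least 1. ANXA2 also held 1 TATA box (TATAAA, found in 10.7% of promoters) 31 bases from the start and 1 AP-1 site (TGANTCA, found in 6.57%) 127 bases from it. The searches also covered an NF-kB site (GGG and CC with any 5 bases between them, in 54.4% of promoters) and a STAT site (TTCNNNGAA, in 6.57%), on both strands. TIMP1 and CD44 each held 3 matches to the NF-kB letters and ANXA2 held 5, and in each of these genes some of the matches overlap one another. The HAVCR1 window held a match to none of the 5 motifs. These matches describe letters in a window and not bound sites.

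Against vehicle, a small number of these markers were called higher with Nnm, and by the leading probe set 0 were called lower without pairing. ANXA2 lay close to a lower call at 48 h (-0.56, interval -0.92 to -0.19, limma adjusted p = 0.0560), and another of its probe sets was called lower. At 24 h CLU rose, and the 7 other tested genes did not pass the test. At 48 h IL18 and TIMP1 rose, and the other 6 did not pass in the fit without pairing. With the replicate number as a block, CLU also passed as higher at 48 h and ANXA2 as lower. HAVCR1, the marker most specific to the injured proximal tubule, was not among the rises at either time and lay lower in Nnm cells by its means. The threshold for a call was an adjusted p of 0.05 in a limma fit of all 12 arrays, with Benjamini-Hochberg adjustment over 22829 tested probe sets. By the leading probe set 1 of 8 genes was called higher and 0 lower at 24 h, where 8.31% of all 10966 tested genes were called higher and 8.21% lower. At 48 h 2 of 8 were called higher and 0 lower, where 6.55% of genes were called higher and 4.27% lower. Over all their probe sets, 2 of 20 were called at 24 h (14.7% of all tested) and 3 of 20 at 48 h (10.2%). At 24 h the shares lie near the background, and at 48 h the count rests on 2 genes.

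The median log2 change of the 8 genes was 0.07 at 24 h and 0.38 at 48 h, beside -0.01 and 0.01 over all tested probe sets. Individual changes ran from -0.65 to 0.66 at 24 h and from -0.89 to 1.23 at 48 h. With the replicate number as a block, 1 of the 8 genes (CLU, higher) was called at 24 h, where 15.6% of all tested genes were called higher and 15.9% lower. In that fit 4 of the 8 were called at 48 h, CLU, IL18 and TIMP1 higher and ANXA2 lower, where 13.2% of all tested genes were called higher and 9.68% lower. Without the Nnm arrays numbered 2, 3 genes passed at 24 h (CLU and CD44 higher, HAVCR1 lower, over a background of 25.5% higher and 24.5% lower). In the same fit 6 passed at 48 h (IL18, TIMP1, VIM and CD44 higher, HAVCR1 and ANXA2 lower, over 24.9% and 19.9%).

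**Figure D1:**
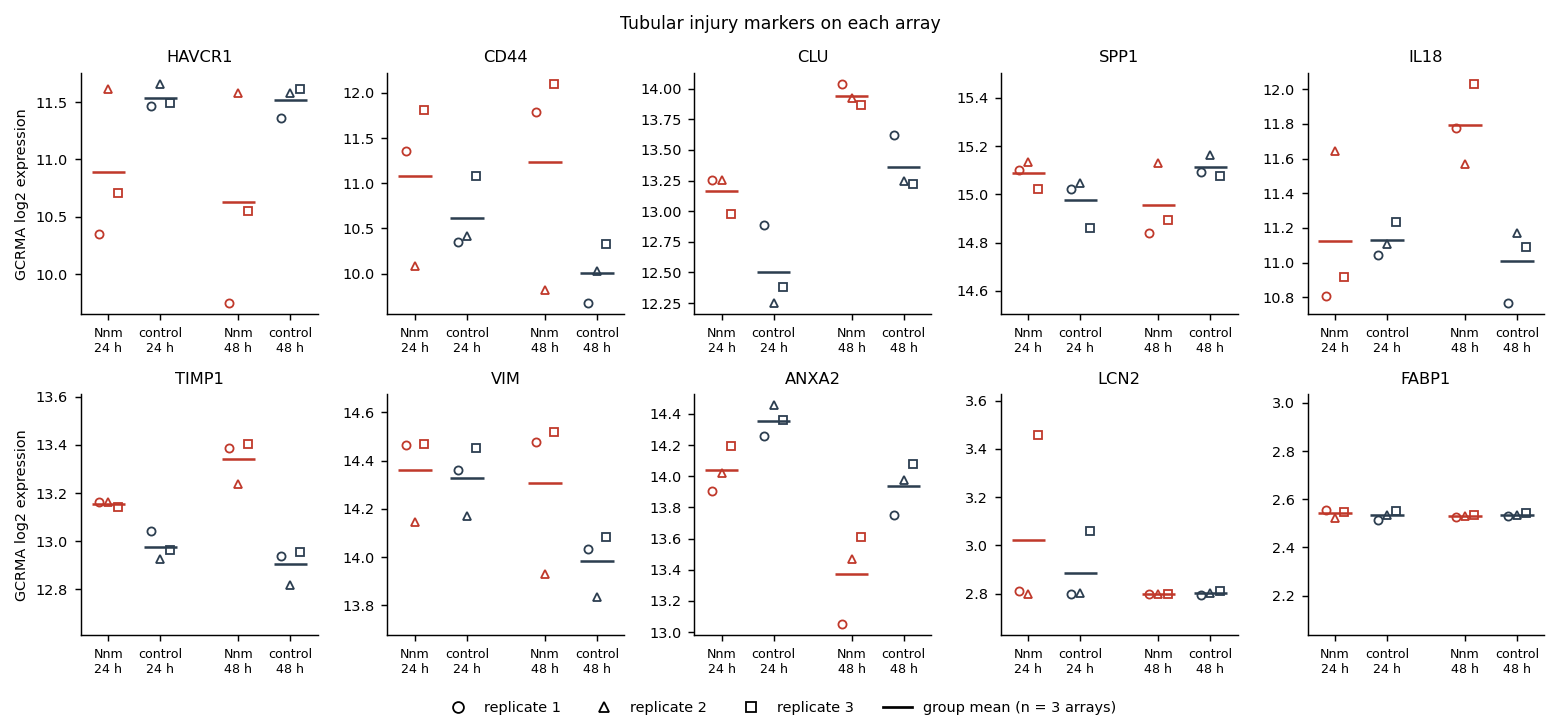
GCRMA log2 expression of the leading probe set of each of the 10 markers (vertical axis, with its own range in each panel), with Nnm left of control at 24 h and at 48 h, symbols for replicates 1 to 3 and a line for each group mean of 3 arrays. CLU and TIMP1 show all Nnm arrays above all control arrays of their time, HAVCR1 shows Nnm replicate 2 among the controls and replicates 1 and 3 below them, and LCN2 and FABP1 lie under log2 4 throughout.

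HAVCR1 was strongly expressed in HK-2 cells with and without Nnm. At 24 h its log2 expression on Nnm arrays 1, 2 and 3 was 10.35, 11.61 and 10.71, against 11.46, 11.66 and 11.49 on control arrays. At 48 h it was 9.75, 11.58 and 10.55 with Nnm, against 11.36, 11.58 and 11.61 in controls. Nnm replicates 1 and 3 lay below every control array at both times, while Nnm replicate 2 lay within the range of the control arrays of both times. The group difference was -0.65 at 24 h (SE 0.42, 95% interval -1.58 to 0.28, adjusted p = 0.292) and -0.89 at 48 h (SE 0.42, interval -1.82 to 0.04, adjusted p = 0.178), so HAVCR1 passed the test at neither time. Single Nnm arrays moved these values both ways. Leaving out only Nnm replicate 1 of the time gave -0.37 at 24 h (adjusted p = 0.648) and -0.45 at 48 h (adjusted p = 0.536). Leaving out only Nnm replicate 2 gave -1.01 (adjusted p = 0.0810) and -1.37 (adjusted p = 0.0179), p-values that do not test the gene. Without both Nnm arrays numbered 2 the values were -1.01 at 24 h and -1.37 at 48 h (adjusted p = 0.00584 and 0.00150, which do not test the gene).

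The spread of HAVCR1 within groups set these intervals. Its SD over the 3 Nnm arrays was 0.65 at 24 h and 0.92 at 48 h, against 0.11 and 0.14 over the control arrays. The order of the group means was control 24 h (11.54), control 48 h (11.52), Nnm 24 h (10.89) and Nnm 48 h (10.63), and each neighbouring pair overlapped in its arrays. The genes whose profile over the 12 arrays was most like that of HAVCR1 were FRYL, MPC2, a subunit of the mitochondrial pyruvate carrier, FRMD4B and DZIP3. After each gene was centred on its own mean, they differed from HAVCR1 by an average of 0.10, 0.11, 0.14 and 0.14 log2 units per array, against a median of 0.57 over 9216 genes compared.

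CD44, the surface receptor for hyaluronan and osteopontin, had the widest spread among the tested markers and the highest difference at 48 h. By its leading probe set, 212063_at, Nnm arrays 1, 2 and 3 read 11.36, 10.08 and 11.81 at 24 h, against 10.35, 10.41 and 11.08 in controls. At 48 h they read 11.79, 9.82 and 12.10, against 9.67, 10.02 and 10.33 in controls. Nnm replicates 1 and 3 exceeded every control array of their time, and Nnm replicate 2 was the lowest array of the 6 at 24 h and the next to lowest at 48 h. The difference was 0.47 at 24 h (SE 0.59, interval -0.83 to 1.77, adjusted p = 0.600) and 1.23 at 48 h (SE 0.59, interval -0.07 to 2.53, adjusted p = 0.185). Without the Nnm arrays numbered 2 it was 0.97 and 1.94 (adjusted p = 0.0171 and 6.70e-04, which do not test the gene). Leaving out only Nnm replicate 2 of the time gave adjusted p-values of 0.216 at 24 h and 0.0129 at 48 h, which do not test the gene. Leaving out only Nnm replicate 3 gave differences of 0.10 (adjusted p = 0.941) and 0.80 (adjusted p = 0.483).

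The other probe sets for CD44 followed the same arrays. The annotation gave CD44 13 probe sets, of which 8 passed the filter, and 7 of these averaged above log2 8. On Nnm replicate 1 at 48 h these 7 exceeded the control array of the same number by 2.12 to 3.40 log2 units, and on replicate 3 by 1.77 to 2.65. On Nnm replicate 2 at 48 h the difference ran from -0.21 to 0.87. At 24 h it was 0.89 to 1.31 on replicate 1, -0.33 to 0.24 on replicate 2 and 0.42 to 0.84 on replicate 3. The probe sets read 1 gene from the same RNA and are not replicates of one another.

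The widest of them was 204489_s_at, which read 12.06, 8.94 and 11.96 in Nnm cells at 48 h, against 8.65, 8.55 and 9.31 in controls. Nnm replicates 1 and 3 lay well above all 3 control arrays, and Nnm replicate 2 lay between control arrays. Its difference was 2.15 (SE 0.76, interval 0.46 to 3.84, adjusted p = 0.0917). The 6 bright probe sets other than 212063_at differed by 1.75 to 2.15 at 48 h with adjusted p-values of 0.0896 to 0.109, and none was called. With the replicate number as a block all 6 were called (adjusted p = 0.0148 to 0.0357), and 13 of the 20 marker probe sets passed in that fit, beside 22.1% of all tested probe sets. Most of the 13 repeat a gene from the same RNA, so the 2 shares are not comparable. By the leading probe set the block called 4 of 8 genes, beside 13.2% of all tested genes higher and 9.68% lower. Without the block the 6 CD44 probe sets differed by 0.45 to 0.76 at 24 h (adjusted p = 0.505 to 0.676). In the fit lacking the Nnm arrays numbered 2 they differed by 0.86 to 1.30 at 24 h and by 2.67 to 3.17 at 48 h (adjusted p = 0.00818 to 0.102 at 24 h; p-values of that fit do not test the gene). The dimmest tested probe set, 217523_at, differed by -0.07 at 24 h (adjusted p = 0.917) and by 0.63 at 48 h (adjusted p = 0.269), which became -0.02 and 1.08 without the Nnm arrays numbered 2 (adjusted p = 0.953 and 0.0133, which do not test the gene).

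**Figure D2:**
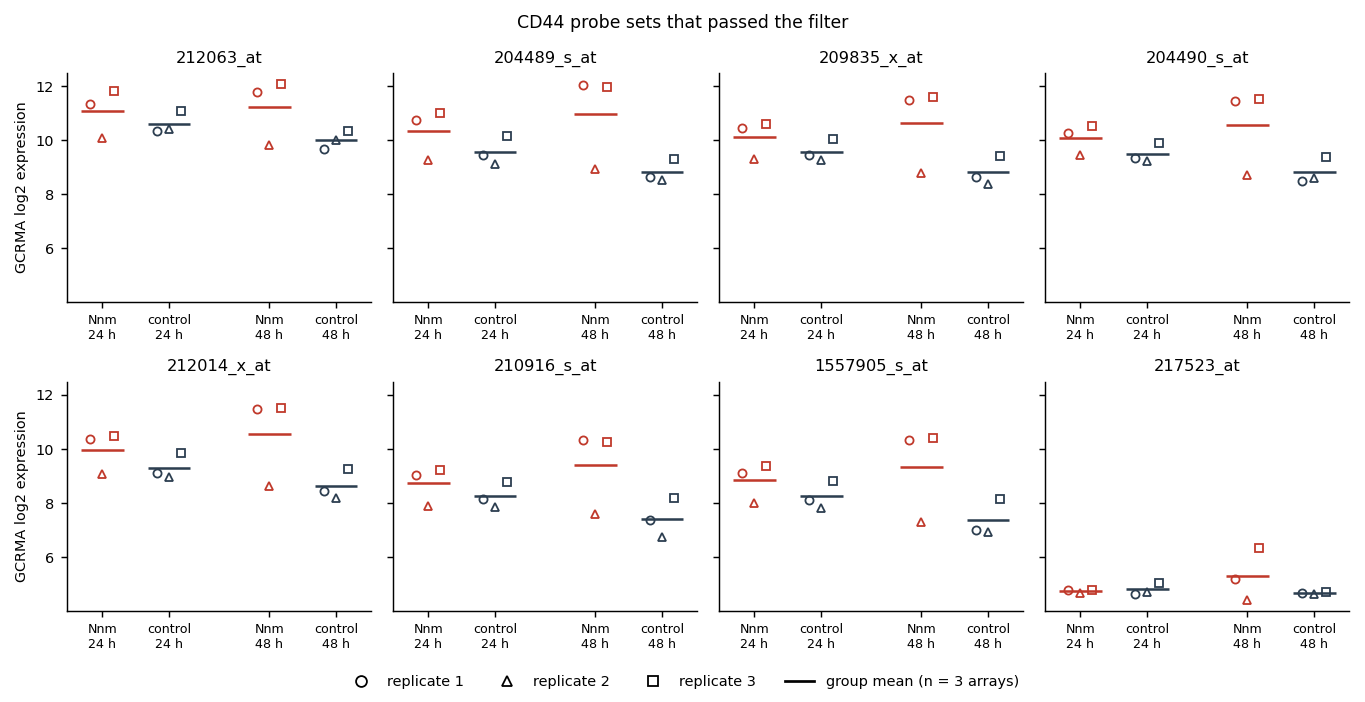
GCRMA log2 expression (vertical axis, shared by all panels) of the 8 CD44 probe sets that passed the filter, with Nnm left of control at each time, symbols for replicates 1 to 3 and lines for the means of 3 arrays. In the 7 brighter probe sets at 48 h the circles and squares of Nnm replicates 1 and 3 stand 1.77 to 3.40 log2 units above the control of the same number, and the triangle of Nnm replicate 2 differs from its control by -0.21 to 0.87.

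Genes for partners of CD44 and osteopontin were tested for 12 of the 16 listed, and 1 was higher and 2 were lower at 24 h while 3 were higher and 0 lower at 48 h. HAS3, which synthesises the CD44 ligand hyaluronan, rose by 0.93 at 24 h (SE 0.24, adjusted p = 0.0335) and by 1.56 at 48 h (SE 0.24, adjusted p = 0.00912). ITGB5 and ITGA4, integrin subunits of receptors that bind osteopontin, rose by 1.06 and 0.76 at 48 h (adjusted p = 0.0211 and 0.0383). At 24 h MSN (moesin) and NF2 (merlin), which bind the tail of CD44 inside the cell, fell by 0.60 and 0.79 (adjusted p = 0.0251 and 0.0293). ITGB5 differed by 0.64 at 24 h (adjusted p = 0.0731, and 0.0468 with the block). NF2 differed by -0.57 at 48 h (adjusted p = 0.0832, and 0.0384 with the block). With the block 2 were higher and 3 lower at 24 h, and 3 were higher and 1 lower at 48 h. The median change of the 12 was -0.05 at 24 h and 0.10 at 48 h.

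CLU, a secreted chaperone that binds misfolded proteins outside the cell, was the marker that rose at 24 h. Its leading probe set, 208792_s_at, read 13.26, 13.25 and 12.98 on Nnm arrays at 24 h, against 12.89, 12.25 and 12.38 on control arrays. At 48 h it read 14.04, 13.92 and 13.87 with Nnm, against 13.62, 13.25 and 13.22 in controls. At both times all 3 Nnm arrays lay above all 3 control arrays, the arrays numbered 2 included. The 24 h difference was 0.66 (SE 0.18, interval 0.25 to 1.07, adjusted p = 0.0414), a 1.58-fold rise. The 48 h difference was 0.58 (SE 0.18, interval 0.17 to 0.99) and did not pass (adjusted p = 0.0696, which became 0.0213 with the block).

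Of the other CLU probe sets, 208791_at rose by 0.58 at 24 h (adjusted p = 0.0481) and differed by 0.60 at 48 h (adjusted p = 0.0524, and 0.0152 with the block). Its 48 h difference without the Nnm arrays numbered 2 was 0.61 (adjusted p = 0.0349, which does not test the gene). The dimmer 222043_at differed by 0.17 at both times (adjusted p = 0.695 and 0.721) and by -0.10 and -0.04 without the Nnm arrays numbered 2, and 1559228_at stayed under the filter. The 24 h call of the leading probe set was lost when any of 8 arrays was left out, namely Nnm replicates 1 or 3 of either time and control replicates 2 or 3 of either time (adjusted p = 0.0507 to 0.148). It was also lost when all probe sets entered without a filter (0.0965) and in a fit of the 24 h arrays alone (0.105).

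CLU was also higher at 48 h than at 24 h in cells that received only vehicle. Control arrays differed by 0.86 between the times without overlap (interval 0.45 to 1.27), with an unadjusted p of 8.27e-04 and an adjusted p of 0.282, so the change in controls was not called. Group means ran in the order Nnm 48 h (13.94), control 48 h (13.36), Nnm 24 h (13.16) and control 24 h (12.51), and of these neighbours control 48 h and Nnm 24 h overlapped in their arrays while the other pairs did not. The profiles most like that of CLU belonged to LETMD1, SLC46A1, the proton-coupled folate transporter, ARSL and ZNF277. Their centred values differed from those of CLU by an average of 0.14, 0.15, 0.16 and 0.17 log2 units per array, against a median of 0.53 over 9216 genes.

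TIMP1, a secreted inhibitor of matrix metalloproteinases, had the smallest standard error among the tested markers. It read 13.16, 13.16 and 13.14 on Nnm arrays at 24 h, against 13.04, 12.92 and 12.96 on control arrays, and 13.39, 13.24 and 13.40 on Nnm arrays at 48 h, against 12.94, 12.82 and 12.95 on control arrays. Nnm arrays lay above control arrays without overlap at both times. The difference was 0.18 at 24 h (SE 0.10, interval -0.05 to 0.41, adjusted p = 0.243) and 0.44 at 48 h (SE 0.10, interval 0.21 to 0.67, adjusted p = 0.0303), a 1.35-fold rise at 48 h. Against the control array of the same number, each of the 3 Nnm arrays at 48 h was higher by 0.42 to 0.45. The 48 h call was lost without Nnm 48 h replicate 1 or 3 or without any of the 3 control arrays of 48 h (adjusted p = 0.0772 to 0.114), and in a fit of the 48 h arrays alone (0.0960).

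Among 8 tested TIMP and metalloproteinase genes 1 was higher at 24 h and 1 was lower at 48 h. ADAM17, a sheddase of many surface proteins, rose by 0.73 at 24 h (SE 0.19, adjusted p = 0.0357). CD63, a tetraspanin that binds TIMP1 at the cell surface, fell by 0.42 at 48 h (SE 0.11, adjusted p = 0.0387) and differed by -0.22 at 24 h (adjusted p = 0.178). ADAM10, which also cleaves surface receptors, differed by 0.44 at 48 h (adjusted p = 0.0740, and 0.0427 with the block). With the block 1 was higher at 24 h, and 2 were higher (ADAM10 and MMP14) and 1 was lower at 48 h. The list's median change was 0.26 at 24 h and 0.29 at 48 h, beside -0.01 and 0.01 over all tested probe sets.

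IL18, a cytokine of the interleukin 1 family made as an inactive precursor and released by injured tubule cells, rose at 48 h. Nnm arrays read 11.78, 11.57 and 12.03 at 48 h, against 10.77, 11.17 and 11.09 on control arrays. At 24 h they read 10.81, 11.64 and 10.92, against 11.05, 11.11 and 11.23 on control arrays. All Nnm arrays lay above all control arrays at 48 h, whereas at 24 h Nnm replicate 2 was the highest and Nnm replicates 1 and 3 the lowest of the 6 arrays. The difference was 0.78 at 48 h (SE 0.22, interval 0.29 to 1.27, adjusted p = 0.0496), a 1.72-fold rise, and -0.01 at 24 h (SE 0.22, interval -0.50 to 0.48, adjusted p = 0.985; -0.27 without the Nnm arrays numbered 2, adjusted p = 0.172). The 48 h call was lost in 10 of the 12 fits that each left out 1 array (adjusted p = 0.0501 to 0.176) and held only without Nnm replicate 2 of 24 h or of 48 h. It was also lost with arrays centred on their medians (0.0656), without a filter (0.126) and in a fit of the 48 h arrays alone (0.0780).

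Genes that process IL18 or signal from it were mostly dim, and 4 of 13 passed the filter. Of these 4, 0 were called by limma at either time, and with the block 0 were called at 24 h and 0 at 48 h. At an unadjusted p under 0.05 there were 2 at 24 h and 0 at 48 h. Of all 22829 tested probe sets, 8174 at 24 h and 6988 at 48 h had such a p. GSDMD (gasdermin D), the pore protein through which the cytokine leaves cells, differed by -0.72 at 24 h (adjusted p = 0.0609) and by -0.31 at 48 h (adjusted p = 0.393). PYCARD, the adaptor of the inflammasome, differed by -0.84 at 24 h (adjusted p = 0.108), and IL1B, a related cytokine, by -0.27 at 48 h (adjusted p = 0.724). Markers of leukocytes, which also make IL18, averaged under the filter level, as given above.

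SPP1, the secreted adhesive phosphoprotein osteopontin, was bright in every group and did not pass the test at either time. The probe set 209875_s_at read 15.10, 15.14 and 15.02 with Nnm at 24 h, against 15.02, 15.05 and 14.86 in controls, and 14.84, 15.13 and 14.89 with Nnm at 48 h, against 15.09, 15.16 and 15.08 in controls. The arrays overlapped at both times, with each Nnm array above the control of its number at 24 h and below it at 48 h. The differences were 0.11 (interval -0.15 to 0.37, adjusted p = 0.533) and -0.16 (interval -0.42 to 0.10, adjusted p = 0.386), with the 48 h value at -0.25 without the Nnm arrays numbered 2. The dimmer probe set 1568574_x_at differed by -0.15 at 24 h (adjusted p = 0.756) and by 0.13 at 48 h (adjusted p = 0.796), with signs opposite to those of the leading probe set, and its 48 h value was -0.16 without the Nnm arrays numbered 2.

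LCN2, the iron-siderophore carrier NGAL, was at the background level of the array. Nnm arrays read 2.81, 2.80 and 3.46 at 24 h and 2.80, 2.80 and 2.80 at 48 h, against 2.80, 2.80 and 3.06 on control arrays at 24 h and 2.80, 2.80 and 2.81 at 48 h. The 2 values that stood off the rest were the replicates numbered 3 at 24 h, 1 in each treatment. FABP1, which binds long-chain fatty acids and is abundant in the human proximal tubule, read 2.32 to 2.56 over its 2 probe sets and 12 arrays. Neither gene was tested, and no fold is given. A list of 8 genes held receptors of lipocalin and clusterin, relatives of KIM-1 and NFKBIZ, and 4 were tested (LRP1, VLDLR, LRP8 and NFKBIZ, a nuclear regulator of NF-kB targets). Of these LRP8, a receptor for clusterin, fell by 0.75 at 24 h (adjusted p = 0.0468) as the only call. LRP1 differed by 0.27 at 24 h (adjusted p = 0.397) and by 0.45 at 48 h (adjusted p = 0.181), and VLDLR by -0.48 at 48 h (adjusted p = 0.341). Of the FABP family and FABP1 regulators 2 of 9 were tested. FABP5 fell by 1.01 at 24 h (adjusted p = 0.0303) and differed by 0.25 at 48 h (adjusted p = 0.537), and PPARA, a lipid-sensing nuclear receptor, differed by 0.48 and 0.29 (adjusted p = 0.212 and 0.475).

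VIM, the intermediate filament protein of mesenchymal and dedifferentiated cells, was bright in all groups and did not pass the test. It read 14.47, 14.15 and 14.47 with Nnm at 24 h, against 14.36, 14.17 and 14.45 in controls, and 14.48, 13.93 and 14.52 with Nnm at 48 h, against 14.03, 13.83 and 14.08 in controls. Replicate 2 was the lowest of its group in all 4 groups, and the Nnm and control arrays overlapped at both times. The difference was 0.03 at 24 h (interval -0.36 to 0.43, adjusted p = 0.915) and 0.32 at 48 h (interval -0.07 to 0.72, adjusted p = 0.244). The 24 h difference was 0.14 without the Nnm arrays numbered 2. Leaving out Nnm 48 h replicate 3 alone gave 0.22 at 48 h (adjusted p = 0.552). Leaving out Nnm 48 h replicate 2 alone gave 0.51 (adjusted p = 0.0342), and leaving out both Nnm arrays numbered 2 gave 0.51 (adjusted p = 0.00971). These last 2 p-values do not test the gene.

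Of 6 other intermediate filament and associated genes tested, 3 were called lower and 0 higher at 24 h, where LMNB2 fell by 0.97 (adjusted p = 0.0285), LMNA by 0.95 (adjusted p = 0.0275) and NES by 0.90 (adjusted p = 0.0482). The lamins LMNA and LMNB2 form the mesh under the nuclear envelope, and nestin (NES) is a partner of vimentin in immature cells. At 48 h LMNA fell by 1.25 (SE 0.23, adjusted p = 0.0146) as the only call, and LMNB2 differed by -0.71 (adjusted p = 0.0794, and 0.0345 with the block). With the block 1 of the 6 was higher at 48 h, SYNM (synemin), which differed by 1.44 (adjusted p = 0.106, and 0.0382 with the block), and NES differed by 0.06 at that time. The median of the 6 was -0.82 at 24 h and -0.29 at 48 h.

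ANXA2, a calcium-dependent membrane-binding protein that assembles plasmin at the cell surface, read lower in Nnm cells by all 3 tested probe sets. The leading one, 210427_x_at, read 13.91, 14.02 and 14.20 with Nnm at 24 h, against 14.26, 14.45 and 14.36 in controls, and 13.05, 13.47 and 13.61 with Nnm at 48 h, against 13.75, 13.98 and 14.08 in controls. All Nnm arrays lay below all control arrays at each time, the arrays numbered 2 included. The difference was -0.32 at 24 h (SE 0.16, interval -0.68 to 0.05, adjusted p = 0.195) and -0.56 at 48 h (SE 0.16, interval -0.92 to -0.19, adjusted p = 0.0560, and 0.0148 with the block). The probe set 213503_x_at was called lower at 48 h, where it fell by 0.56 (SE 0.16, adjusted p = 0.0480), and 201590_x_at differed by -0.50 (adjusted p = 0.0741, and 0.0153 with the block). The leading probe set came to pass at 48 h without Nnm replicate 2 of 24 h (adjusted p = 0.0432) or of 48 h (0.0394). Without both, the 48 h differences of the 3 probe sets were -0.61 to -0.55 (adjusted p = 0.0203 to 0.0379). The p-values of these fits do not test the gene. At 24 h the block called 213503_x_at as well (-0.32, adjusted p = 0.0423, against 0.165 without the block). Probe sets ending in x_at can share probes with near-identical sequences, so the level of ANXA2 may include related copies.

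Among 13 annexins, S100 genes and partners of annexin A2 (AHNAK and PLAT), all tested, 1 was called lower at 24 h and 2 were called lower at 48 h, with 0 higher at either time. ANXA3, a relative of annexin A2, fell by 1.87 at 24 h (SE 0.33, adjusted p = 0.0126) and by 1.85 at 48 h (SE 0.33, adjusted p = 0.0133). S100A4, a calcium-binding protein of motile cells, fell by 1.19 at 48 h (SE 0.28, adjusted p = 0.0293), and ANXA4 differed by -0.65 at 24 h (adjusted p = 0.0586, and 0.0346 with the block). With the block 5 were lower at 24 h and 3 at 48 h, and 0 were higher. AHNAK, a scaffold protein bound by annexin A2, lay higher on all Nnm arrays by 0.30 at 24 h and by 0.38 at 48 h without passing (adjusted p = 0.153 and 0.0967). The list's median was -0.32 at 24 h and -0.30 at 48 h.

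**Figure D3:**
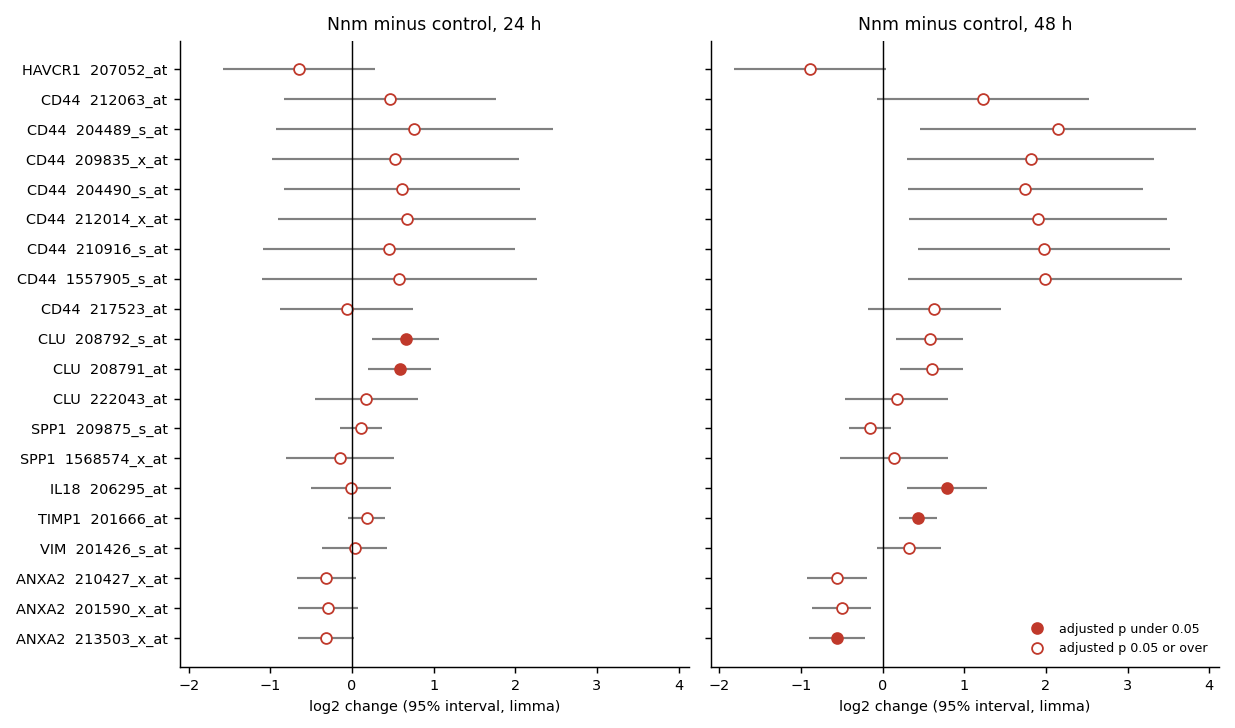
Log2 change, Nnm minus control (horizontal axis), with 95% intervals from the limma fit for the 20 tested marker probe sets at 24 h and at 48 h, filled where the adjusted p was under 0.05. Of the leading probe sets CLU is filled at 24 h and IL18 and TIMP1 at 48 h, and the 7 brighter CD44 probe sets have the widest intervals.

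Nnm arrays and control arrays of the same time did not overlap for 3 of the 8 tested genes at 24 h (CLU and TIMP1 higher, ANXA2 lower), where this held for 39.6% of all tested genes. At 48 h they did not overlap for 4 genes (CLU, IL18 and TIMP1 higher, ANXA2 lower), beside 37.6% of all tested genes. Both shares lie near the background. HAVCR1, CD44, VIM and SPP1 overlapped at 48 h through Nnm replicate 2.

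**Figure D4:**
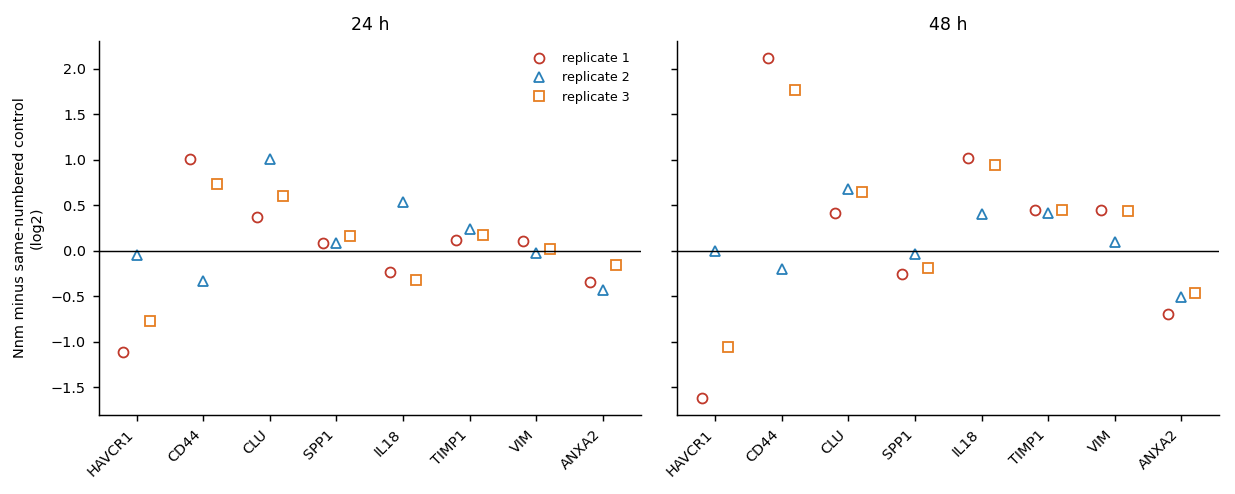
Log2 expression on each Nnm array minus the control array of the same replicate number (vertical axis) for the leading probe sets of the 8 tested markers, by replicate at 24 h and at 48 h. For HAVCR1 and CD44 replicates 1 and 3 lie away from 0 at 48 h and replicate 2 lies near it, whereas TIMP1 at 48 h lies between 0.42 and 0.45 in all 3 pairs.

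Whether the response differed between the times was tested as the 48 h change minus the 24 h change. Among the markers 0 of 8 passed by limma, 1 of them (IL18) had an unadjusted p under 0.05, and the block also called 0. Over all tested genes 0% passed, and of all 22829 probe sets 0 were called while 1418 had an unadjusted p under 0.05. For IL18 the difference between the times was 0.79 (unadjusted p = 0.0291, adjusted p = 0.780). Without the Nnm arrays numbered 2 it was 1.16 (adjusted p = 0.0137, which does not test the gene; leaving out Nnm 24 h replicate 2 alone also brought IL18 past the threshold; 6 CD44 probe sets other than the leading one passed as well), over a background of 12.5% of genes called in that fit. The rises of CLU at 24 h and of TIMP1 and IL18 at 48 h were therefore not shown to be specific to a time.

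Vehicle cells were compared between 48 h and 24 h to give the background change with time. Of the 8 markers 0 passed by limma (0% of all tested genes), and the block also called 0 of them. An unadjusted p under 0.05 was reached by 2 markers (CLU and ANXA2), beside 1836 of all 22829 tested probe sets. ANXA2 differed by -0.42 between the control times (interval -0.79 to -0.06, adjusted p = 0.561). Control arrays of the 2 times did not overlap for 5 markers, CLU and SPP1 higher at 48 h and VIM, CD44 and ANXA2 lower, beside 26.4% of all tested genes. Nnm arrays did not overlap between the times for 3 markers, CLU and TIMP1 higher at 48 h and ANXA2 lower, beside 12% of all tested genes.

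Other genes used as urinary injury biomarkers or found in injured tubules moved in both directions. Of 9 tested urinary biomarker genes outside the 10 markers, 1 was lower at 24 h and 2 were lower at 48 h, with 0 higher at either time. CCN1, a matricellular protein, fell by 2.02 at 24 h (SE 0.41, adjusted p = 0.0184). At 48 h CHI3L1, a chitinase-like secreted glycoprotein, fell by 2.13 (SE 0.48, adjusted p = 0.0257) and GSTP1, a glutathione transferase, fell by 0.79 (adjusted p = 0.0338). GSTP1 had differed by -0.33 at 24 h (adjusted p = 0.253). With the block 1 was higher and 1 lower at 24 h, and 2 were higher and 3 lower at 48 h. Among them MDK, the growth factor midkine, differed by 0.39 and 0.71 (block adjusted p = 0.0405 and 0.0106, against 0.352 and 0.132 without it), and CST3 (cystatin C) by 0.53 at 48 h (block adjusted p = 0.0176, against 0.189). The list's median was 0.06 at 24 h and -0.23 at 48 h.

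Of 18 tested genes of injured and repairing tubules 1 was higher and 0 lower at each time. SPHK1, which makes the signalling lipid sphingosine 1-phosphate, rose by 2.09 at 24 h (SE 0.39, adjusted p = 0.0155) and by 3.10 at 48 h (SE 0.39, adjusted p = 0.00495). ATF3, a stress-induced transcription factor, differed by 3.23 at 24 h with overlapping arrays (SE 1.28, adjusted p = 0.102, and 0.0289 with the block). PLAUR, the urokinase receptor, differed by 2.21 at 48 h (SE 0.81, adjusted p = 0.10, and 0.0267 with the block). Nnm replicate 2 read 4.47 for ATF3 at 24 h and 6.74 for PLAUR at 48 h, within the range of the controls of that time. Nnm replicates 1 and 3 lay above that range (9.68 and 9.43 for ATF3, 9.60 and 9.97 for PLAUR). With the block 2 were higher and 3 lower at 24 h, and 3 were higher and 2 lower at 48 h. TGFB1 was among the higher genes at 48 h (1.04, block adjusted p = 0.0285, against 0.208 without the block). The lower genes were TNFRSF12A, the receptor for TWEAK (-0.94 and -0.55, block adjusted p = 0.00901 and 0.0304), the chemokine CCL2 (-2.05 and -2.73, block adjusted p = 0.0325 and 0.0164) and, at 24 h, the keratin KRT8 (-0.59, block adjusted p = 0.0222). These 3 did not pass without the block (adjusted p = 0.131 to 0.421). The median of the 18 was -0.63 at 24 h and 0.17 at 48 h. Over the 9 lists together, 76 of 116 genes were tested, and 3 were higher and 9 lower at 24 h, while 4 were higher and 6 lower at 48 h. That is 3.95% and 11.8% of the 76 at 24 h, beside 8.31% and 8.21% of all tested genes, and 5.26% and 7.89% at 48 h, beside 6.55% and 4.27%. With the block 7.89% were higher and 22.4% lower at 24 h, beside 15.6% and 15.9% of all tested genes, and 14.5% and 15.8% at 48 h, beside 13.2% and 9.68%. Without the Nnm arrays numbered 2 the shares were 14.5% and 32.9% at 24 h, beside 25.5% and 24.5% of all tested genes, and 23.7% and 22.4% at 48 h, beside 24.9% and 19.9%.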

How the data were processed

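Per the submitters' processing notes, the authors computed log2 expression from the arrays with GCRMA (version not stated), and the deposited table gives it for every probe set and array. GCRMA subtracts a background estimated from probe sequence, scales the arrays to each other and summarises the probes of a set, and a shift common to most genes would therefore be removed. The sources used here do not state which arrays were processed together. The platform annotation, the source of gene names, named 1 gene for 41091 probe sets, several for 1801 and none for 11721 (62 control probe sets apart). Symbols were updated through the RefSeq table of GRCh38.p14.

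A limma model (version 3.58.1, R 4.3.3) with a mean for each of the 4 groups was fitted to the 12 arrays with lmFit, contrasts.fit and eBayes, leaving 8 residual degrees of freedom. P-values were adjusted by Benjamini-Hochberg over the 22829 probe sets above log2 4 on at least 3 arrays. The scripts were tested on simulated data. No 2 arrays were identical. The number of arrays limits the precision.

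The labels give the same replicate numbers in each group. All 18 correlations of deviations between same-numbered arrays exceeded 0.1 (0.16 to 0.67), against a median of -0.21 over 36 other pairs. By this check of the data the numbers paired the samples. Block values stand beside each marker, and each list gene described with its change, whose call they change. They also stand beside each list with given call counts that they change. Block values are not given for the cell type markers or for the genes most like HAVCR1 and CLU.

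The markers and gene lists were chosen with earlier results of these data known. Named beside the markers were, for each list and Nnm comparison, up to 3 called genes with the largest change, or, with fewer than 2 calls, the 2 genes of lowest p, and the 4 genes most like HAVCR1 and CLU (mean at least log2 6). The choice of single arrays and of CD44 probe sets to describe was made with their values known. Alternatives were no filter, a filter at log2 6, the block, only the arrays compared, median centring, quantile normalization, trend and robust eBayes, array weights, the probe set with the largest SD, leaving out each array, and leaving out the Nnm arrays numbered 2.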

Additional observations from a re-analysis of the deposited data

How the results depend on the processing

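Of 352 recomputed changes of single markers, 290 kept their direction and their side of the threshold, 24 came to pass it, 29 no longer passed and 9 changed sign, and for these the cause was not tested. All sign changes were in values near 0 that passed no test: IL18 at 24 h (0.0086 after quantile normalization, -0.27 to 0.15 with 1 array left out), VIM at 24 h (-0.045 to 0.14 with 1 array left out) and SPP1 by its probe set with the largest SD (-0.15 at 24 h and 0.13 at 48 h). The count of markers called at 24 h was 0 without a filter and in a fit of only the arrays compared, 3 with array weights, 3 without the Nnm arrays numbered 2 and 0 to 1 with 1 array left out (0 for the 8 arrays named with CLU). At 48 h it was 1 without a filter, 4 with the replicate block, 0 with only the arrays compared, 1 with arrays centred on their medians, 4 with trend and robust settings, 8 with array weights, 6 without the Nnm arrays numbered 2 and 0 to 6 with 1 array left out (0 without Nnm replicate 1 or 3 or any control replicate of 48 h, 6 without Nnm 48 h replicate 2). For the difference between the times it was 1 with array weights and 1 without the Nnm arrays numbered 2, and 0 to 1 with 1 array left out, IL18 each time. Over all probe sets, 3366 were called at 24 h and 2323 at 48 h, which became 848 and 842 without a filter, 6700 and 5046 with the replicate block, 112 and 115 with only the arrays compared, 12093 and 11202 with array weights and 10730 and 9605 without the Nnm arrays numbered 2, and 81 to 8683 and 207 to 6117 with 1 array left out (lowest without control 24 h replicate 3 and Nnm 48 h replicate 3, highest without Nnm replicate 2 of that time). The difference between the times called 2 without a filter, 3899 with array weights, 2556 without the Nnm arrays numbered 2 and 0 to 1028 with 1 array left out. Control cells at 48 h against 24 h gave 1 without a filter, 1 with the stricter filter, 12 with the replicate block, 4 with only the arrays compared, 1 with median centring, 94 with array weights, 26 without the Nnm arrays numbered 2 and 0 to 4 with 1 array left out. Pairing by replicate number changed no marker call other than those given beside the markers. GCRMA values carry no detection call, so a level under log2 4 sets only a bound on LCN2 and FABP1.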
